A study of Mus musculus with 6 samples.

Results

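The genes described here are 10 genes of skeletal muscle calcium handling, energy supply and thick filaments: Ckm, Atp2a1, Ryr1, Casq1, Sln, Pgam2, Eno3, Pygm, Mybpc1 and Mybpc2. They were measured by 15 probe sets, 9 on one array type (A) and 6 on the other (B), out of 45137 probe sets and 18193 named genes on both. The list was chosen by function and with the difference between the pools in view, so every contrast with wild type below is a description of these genes and carries no test for them. The RNA was total RNA of mouse spinal cord, lumbar segments L3 to L5, at postnatal day 27. Egr3-deficient mice gave 2 pools, called pool 1 and pool 2, and wild-type mice gave 1. Each pool held RNA of 3 cords and was hybridised once to both array types. The labels of pool 2 and of the wild-type pool carry the word acclimatization as a treatment and those of pool 1 do not. The sources used here do not name the Egr3 allele.

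In skeletal muscle, a voltage sensor in the surface membrane opens the ryanodine receptor, and calcium leaves the sarcoplasmic reticulum to start contraction. The reticulum stores it on calsequestrin and takes it back with a calcium pump that small membrane peptides restrain. Creatine kinase, glycogen phosphorylase and the late glycolytic enzymes keep ATP available to the pump and to myosin, and myosin binding protein C links the thick filament to actin. Neurons and glia mostly use other members of the same families. Egr3 is a transcription factor needed for muscle spindles.

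As a whole, the data had these properties. Median deposited intensity was 50.3 and 57.9 in the Egr3-deficient pools against 60.1 in wild type on A, and 76.2 and 83.8 against 91.8 on B. Egr3 itself was not below wild type in both Egr3-deficient pools on either array type. On A it read 24.9 and 52.7 in the Egr3-deficient pools against 40.6 in wild type, so the pools split. On B it read 209.6 and 107 against 75.3, above wild type in both. Where those probe sets lie relative to the deletion is unknown here, so pools are called by their labels. The 3' to 5' ratio of the 18S ribosomal RNA control, a sign of RNA quality, was 2.27 and 1.08 against 0.0493 on A and 1.43 and 0.945 against 0.0605 on B, and its part in the results was not tested. The same ratio was 1.367 and 1.481 against 1.365 for beta-actin and 0.858 and 0.975 against 0.734 for Gapdh on A. For pyruvate carboxylase it was 4.20 and 3.80 against 2.42 on A and 5.82 and 4.02 against 3.85 on B. For the transferrin receptor it was 1.548 and 2.292 against 1.555 on A and 2.57 and 2.54 against 2.11 on B. Spinal cord markers were present in all pools, with Nefl, a neurofilament gene, at 4544 and 4757 in the Egr3-deficient pools and 5066 in wild type on A. Its log2 difference was -0.14 on A and -0.53 on B. Snap25, a synaptic gene, read 2172 and 3140 against 4838 on A, a difference of -0.96, but differed by 0.51 on B. Of the 12 such markers on A, 4 stood above and 5 below wild type in both Egr3-deficient pools. The myelin gene Mbp read 8836 and 11730 against 14549 on its brightest probe set on A, with a log2 difference of -0.056 after quantile normalization. That value follows the rank of the probe set on each array, which was the same in pool 1 and wild type, and so does not show unchanged Mbp. The other Mbp probe sets on A ranged from -1.42 (337 and 525 against 1100) to 0.22 (84.5 and 108 against 87.5). The choline transporter gene Slc5a7 and the glycine transporter gene Slc6a5 read below the intensity of 36.7 in every pool on A, while Slc6a5 read 1695 and 1553 against 1230 on B.

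All 8 of the genes on array type A were above wild type in both Egr3-deficient pools by their brightest probe set, and so were all 4 on array type B. Over all named genes, 48.0% on A and 44.5% on B stood above in both. Differences are given as log2 values after quantile normalization of log2(intensity + 16), a scale that understates changes of dim genes. The median difference was 1.09 over the genes on A (1.38 in pool 1 and 0.84 in pool 2) and 1.32 on B (1.27 and 1.37). Over all named genes the medians were 0.12 on A and 0.12 on B. A difference of at least 2-fold on this scale in both pools was reached by 3 of 9 probe sets on A (Ckm, Atp2a1 and Eno3) and by 3 of 6 on B (Mybpc2, Ryr1 and 1 of 3 for Mybpc1). The background share of such probe sets was 1.14% on A and 4.47% on B, while 3.38% and 3.55% lay as far below wild type. Since the genes were chosen on this contrast, nothing is read from these counts. Both differences of a probe set share the single wild-type pool, whose own spread was not measured. In bulk RNA more cells of a type and more RNA per cell cannot be told apart.

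**Figure D1:**
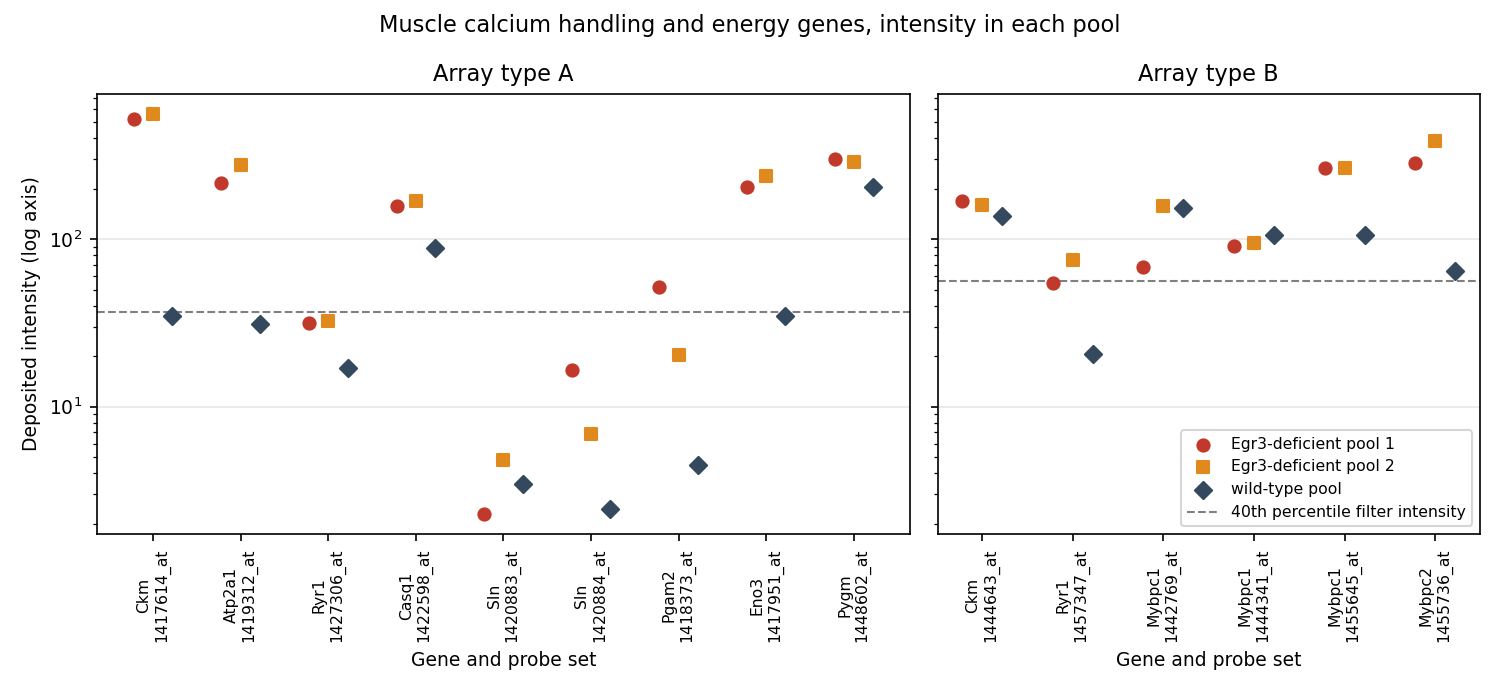
Deposited intensity (log axis) of every probe set of the 10 genes in Egr3-deficient pool 1 (circles), Egr3-deficient pool 2 (squares) and the wild-type pool (diamonds), on array types A and B; the names under the axis are the array maker's probe set names and the dashed line marks the intensity of the 40th percentile filter, 36.7 on A and 55.9 on B. Ckm, Atp2a1 and Eno3 on A lie near that line in wild type and well above it in both other pools, while Ckm on B and 2 of the 3 Mybpc1 probe sets show no such gap.

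Ckm had the largest difference among the 10 genes. Ckm, which makes the cytosolic muscle creatine kinase that regenerates ATP from phosphocreatine, read 519 and 563 in the Egr3-deficient pools against 34.9 in wild type on A. That is 14.8-fold and 16.1-fold on the deposited scale, and a log2 difference of 3.51 ± 0.11 (SD, n = 2 pools). The 2 Egr3-deficient pools lay close together and far from wild type, and by the smaller of its 2 differences the probe set ranked 8 on A. The Ckm probe set on B read 168 and 160 against 137, a difference of 0.35 ± 0.080. The 2 probe sets of this gene thus disagreed in size, and on B wild type already read above the filter intensity of 55.9.

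Eno3, the muscle enolase of glycolysis, read 204 and 239 in the Egr3-deficient pools against 34.7 in wild type. The fold values were 5.89 and 6.88 and the log2 difference was 2.31 ± 0.12. Pgam2, the muscle phosphoglycerate mutase that acts just before enolase, read 51.5 in pool 1 and 20.4 in pool 2 against 4.47 in wild type. Its pools differed from each other as no other gene of the 10 on A did, with log2 differences of 1.84 and 0.78. Pygm, the muscle glycogen phosphorylase, read 299.5 (pool 1) and 289.7 (pool 2) against 205, a difference of 0.53 ± 0.031. It was the brightest of the 4 energy genes in wild type on A and had the smallest difference there, at percentile 83.5 of all probe sets.

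Calcium handling genes ranged widely. Atp2a1, the fast-fibre calcium pump of the sarcoplasmic reticulum, read 217 and 277 in the Egr3-deficient pools against 31.3 in wild type. The fold values were 6.92 and 8.86 and the log2 difference was 2.55 ± 0.21, with pool 2 above pool 1. Ryr1, the skeletal calcium release channel, read 31.7 and 32.6 against 16.9 on A, all below the filter intensity. On B its other probe set read 54.4 and 74.9 against 20.6, with log2 differences of 1.18 and 1.43. The channel was thus above wild type in both pools by both probe sets, from dim readings. Casq1, the fast-fibre calsequestrin, read 158 and 170 against 88.8, a difference of 0.88 ± 0.029.

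Sln encodes sarcolipin, a short peptide that inhibits the calcium pump. Its dimmer probe set read 2.28 and 4.76 against 3.44, and the other 16.4 and 6.89 against 2.45. All 6 readings were below the filter intensity, and on the dimmer probe set the pools stood on opposite sides of wild type.

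Myosin binding protein C genes were on B only. Mybpc2, the fast-fibre form, read 285 and 386 in the Egr3-deficient pools against 64.2 in wild type. The fold values were 4.44 and 6.01 and the log2 difference was 2.25 ± 0.28. Mybpc1, the slow-fibre form, had 3 probe sets. On the brightest it read 266 and 265 against 106, a difference of 1.33 ± 0.031. On the second it read 68.5 in pool 1 and 158 in pool 2 against 154, so the 2 pools stood on opposite sides of wild type. On the third it read 90.8 and 94.4 against 106, a normalized difference of 0.0081 ± 0.031. Only 1 of the 3 probe sets for this gene was above wild type in both pools. Where each of them lies on the transcript is unknown here.

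**Figure D2:**
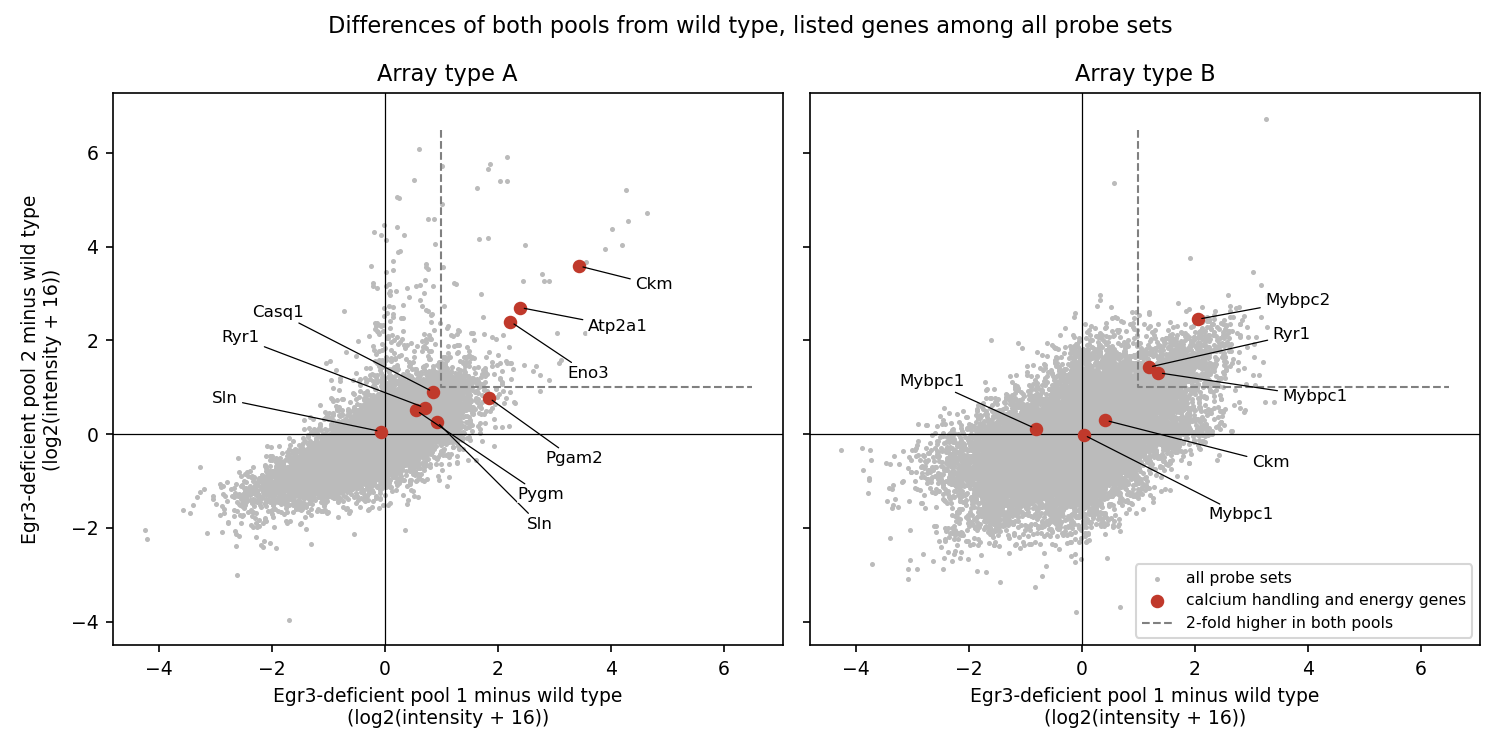
Log2 difference from the wild-type pool in Egr3-deficient pool 1 (horizontal) and pool 2 (vertical) for all probe sets (grey) and for the 10 genes (red), on array types A and B; the dashed lines bound a 2-fold difference in both pools. Ckm, Atp2a1 and Eno3 lie beyond the dense cloud on A and Mybpc2 at its edge on B, and Casq1, Ryr1, Pygm and Sln on A lie within the cloud.

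The dim readings bear on the filter and the fold values. A mean log2 value at or above the 40th percentile kept 5 of the 9 probe sets on A (Ckm, Atp2a1, Casq1, Eno3 and Pygm) and 5 of 6 on B (all but Ryr1). In wild type 7 of the 9 on A and 1 of the 6 on B read below the filter intensity. Several fold values above therefore rest on a wild-type reading near or below that intensity. With a pseudocount of 1 in place of 16, 5 of 9 probe sets on A were at least 2-fold higher in both pools, and the share over all probe sets was then 5.48% in place of 1.14%. The difference of Ckm on A was then 4.01, against 2.64 with a pseudocount of 64. On B, the 100 probe sets common to both array types read higher in the Egr3-deficient pools there, by mean log2 ratios of 0.73 and 0.45 (0.031 and 0.042 on A). Scaled on those, an alternative chosen after seeing the data, the median of all probe sets on B was -0.55. On that scale Mybpc2 still differed by 1.61, Ryr1 by 0.74 and Mybpc1 (brightest probe set) by 0.67, while Ckm on B turned to -0.30.

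The promoters of the 3 genes that stood furthest above wild type on A are shown with the muscle-type motifs they hold, together with that of Pgam2, which holds the most. Of the 10 genes, 9 matched the RefSeq promoter table (build GRCm38.p6), which spans 250 bases before to 50 after each start. Sln was not among them. Capitals mark E-boxes (CANNTG, bound by MyoD-type factors) and, in Pgam2, also a MEF2 site. Each is 5′ to 3′ on the gene's own strand.
Ckm (chr7:19410844-19411143, plus strand): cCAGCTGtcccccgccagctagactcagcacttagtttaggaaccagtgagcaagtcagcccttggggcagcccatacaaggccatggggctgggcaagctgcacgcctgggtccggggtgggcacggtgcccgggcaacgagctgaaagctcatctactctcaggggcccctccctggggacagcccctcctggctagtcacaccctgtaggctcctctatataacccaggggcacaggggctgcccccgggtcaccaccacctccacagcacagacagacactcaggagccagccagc
Atp2a1 (chr7:126463024-126463323, minus strand): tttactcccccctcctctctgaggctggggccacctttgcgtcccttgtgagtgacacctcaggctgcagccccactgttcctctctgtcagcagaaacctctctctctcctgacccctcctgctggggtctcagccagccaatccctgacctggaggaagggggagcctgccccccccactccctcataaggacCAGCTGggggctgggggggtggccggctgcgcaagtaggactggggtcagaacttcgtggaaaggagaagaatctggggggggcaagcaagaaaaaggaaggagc
Eno3 (chr11:70656926-70657225, plus strand): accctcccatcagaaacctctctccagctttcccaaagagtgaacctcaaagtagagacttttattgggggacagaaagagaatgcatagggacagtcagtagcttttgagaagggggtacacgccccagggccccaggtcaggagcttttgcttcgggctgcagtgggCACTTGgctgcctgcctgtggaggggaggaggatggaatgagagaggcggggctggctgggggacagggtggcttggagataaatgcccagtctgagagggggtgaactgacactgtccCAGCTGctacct
Pgam2 (chr11:5803747-5804046, minus strand): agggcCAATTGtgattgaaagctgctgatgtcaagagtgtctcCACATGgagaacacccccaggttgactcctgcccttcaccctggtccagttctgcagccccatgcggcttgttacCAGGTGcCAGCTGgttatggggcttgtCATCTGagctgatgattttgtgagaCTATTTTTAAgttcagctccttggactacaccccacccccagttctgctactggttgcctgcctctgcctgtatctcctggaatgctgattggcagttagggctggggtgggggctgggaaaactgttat

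On both strands, 8 of the 9 promoters held a CANNTG, as did 72.3% of all 32851 promoters of the table. For each of the 9 genes only the first entry was used, while the 32851 include every entry. The Eno3 entry lies inside the span of the gene (chr11:70653125-70662513), so it belongs to an internal start. The form CAGCTG, which is one kind of E-box and so is counted in the first search too, was in 7 of the 9 (Ckm, Atp2a1, Casq1, Pgam2, Eno3, Pygm and Mybpc1) and in 16.3% of all promoters. A MEF2 site was in 1 of the 9, that of Pgam2, and in 3.19% of all. The EGR site GCGNGGGCG was in 0 of the 9 and in 5.55% of all. These are letter matches in a short window and were not tested. In Pgam2, the first bases of 5 E-boxes lay from 245 to 105 bases before the start, and that of the MEF2 match 80 bases before it. Ryr1 was the only one of the 9 promoters with no E-box, and Mybpc2 had 2 E-boxes, neither of them CAGCTG.

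Values of the paralogs, several of which are the brain or general forms, follow. On A, 14 of 15 listed paralogs were measured, 9 were above wild type in both Egr3-deficient pools and 3 below. None passed limma at an adjusted p under 0.05 (2 higher and 1 lower at an unadjusted p under 0.05), and the median difference was 0.22. Ckb, the brain creatine kinase, read 4525 and 5342 against 4920 (difference 0.0042, SE 0.16, adjusted p = 0.990), beside 3.51 for Ckm. Atp2a2, the widely used calcium pump, read 1457 and 1407 against 1688 on its brightest probe set (-0.39, SE 0.22, adjusted p = 0.324), beside 2.55 for Atp2a1. All 4 of its probe sets on A were below wild type in both pools, while on B 1 was below and the other split. Ryr3 read 33.1 and 60.7 against 117 (-1.01, adjusted p = 0.197) and Ryr2, the cardiac and neuronal form, 108 and 140 against 191 (-0.49, adjusted p = 0.406). Of the 3 ryanodine receptor genes on A, Ryr1 was the 1 above wild type in both pools. On B, Ryr3 split at 148 and 111 against 125.

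The neuronal and general enzymes showed small differences. Eno2, the neuronal enolase, differed by 0.34 (SE 0.24, adjusted p = 0.439), beside 2.31 for Eno3. Pgam1, the general mutase, differed by 0.24 (adjusted p = 0.562), beside 1.31 for Pgam2. Pygb, the brain phosphorylase, read 822 in pool 1 and 418 in pool 2 against 497, so its pools split, and Pygl, the liver form, differed by 0.12 (adjusted p = 0.849). Pln, phospholamban, which restrains the pump in heart and slow muscle, was dim in all pools on its brightest probe set, at 21.3 and 24.3 against 20.6. Whether a muscle form and its paralog differed in response was not tested, since the muscle forms were chosen for theirs.

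Other paralogs stood above wild type in both pools. Ckmt2, the mitochondrial creatine kinase of striated muscle, read 97.9 in pool 1 and 19.1 in pool 2 against 1.82, differences of 2.75 and 0.92, and did not pass the filter. Casq2, the cardiac and slow-fibre calsequestrin, read 24.7 and 22.2 against 8.79, below the filter intensity throughout. Ckmt1, the widely expressed mitochondrial form, differed by 0.78 (SE 0.28, adjusted p = 0.199). Mybpc3, the cardiac myosin binding protein C, differed by 0.44 (adjusted p = 0.505), and Atp2a3 by 0.85 (adjusted p = 0.222).

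**Figure D3:**
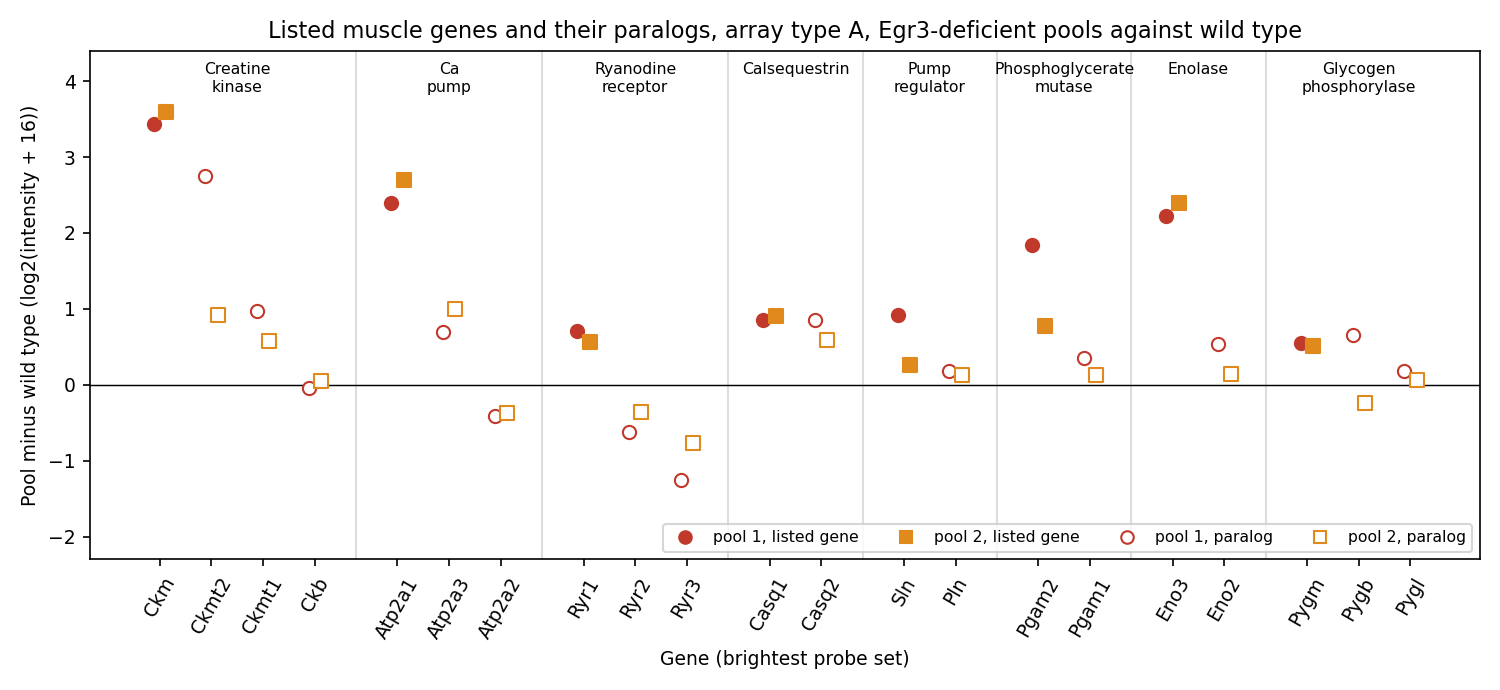
Log2 difference from the wild-type pool on array type A for the listed muscle genes (filled) and their paralogs (open) in Egr3-deficient pool 1 (circles) and pool 2 (squares), by the brightest probe set of each gene, grouped by protein family; Mybpc3 is not drawn. Ckm, Atp2a1 and Eno3 lie above 2 in both pools, while Ckb, Atp2a2 and Eno2 lie between -0.41 and 0.54.

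Other genes of the same pathways gave few calls. Limma called 0.0663% of the kept probe sets higher and 0% lower on A (1077 higher and 1730 lower at an unadjusted p under 0.05), and 1.02% higher and 0.607% lower on B. The fit has 1 residual degree of freedom and takes the spread of the single wild-type pool to equal that of the other 2. Its p-values rest on the spread between the Egr3-deficient pools and, through the intensity trend, on other probe sets. That second part has a prior weight of 6.54 (A) and 52.3 (B) against 1 for the pools, so it outweighs them on both array types and most on B. Pfkp on B, for instance, had an SD of 0.024 between pools but an SE of 0.479. Neither part measures the spread among wild-type pools. Of 18 other calcium release and reuptake genes, 14 were on A, with 10 above and 3 below wild type in both pools and 0 called (1 higher and 1 lower at an unadjusted p under 0.05). On B 10 were measured, with 4 above and 3 below in both pools and 1 called. The list had a median of 0.43 on A and 0.088 on B. Among all named genes, 48.0% (A) and 44.5% (B) stood above in both, each with a median of 0.12. On shared probe set scaling, 4 of the 10 on B were above and 6 below. Cacnb1, the beta subunit of the muscle calcium channel that also serves neurons, rose on B, at 259 and 192 in the Egr3-deficient pools against 35.5 in wild type, a log2 change of 2.37 (SE 0.49) at an adjusted p of 0.0057. Its difference on A was 0.55 (adjusted p = 0.351). Its call on B, like that of Myom2 below, where both read below the filter intensity in wild type, ended without quantile normalization, with no filter, without the intensity trend and on shared probe set scaling.

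Further members of that list had no call. Srl, sarcalumenin of the reticulum lumen, read 334 and 302 against 120 on B (1.39, adjusted p = 0.0999), and Mrln, the pump-inhibiting peptide myoregulin, 197 and 182 against 99.4 (0.98, adjusted p = 0.326). Cacna1s, the voltage sensor, read 13.3 and 21.9 against 3.52 and Cacng1, its gamma subunit, 21.1 and 19.9 against 3.18, both below the filter. Trdn, triadin, which ties calsequestrin to the release channel, lay below wild type on the brightest of its 6 dim probe sets, at 8.36 and 10.7 against 36.5. After normalization another differed by -0.78 and -0.67, and another by -0.032 and -0.0045. On 2 others Trdn lay above wild type in both pools, by 0.39 and 0.24 on the first and by less on the second. On the last the pools split. Cacna2d1, a channel subunit that neurons also use, read 7.27 and 33.0 against 125 on A (log2 differences of -2.47 and -1.52, adjusted p = 0.161). Pvalb, a calcium buffer of fast muscle that spinal neurons also express, read 1354 and 1487 against 848 (0.63, adjusted p = 0.208).

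The other energy genes gave no calls. Of 25 other phosphagen, glycogen and glycolysis genes, 22 were on A, with 16 above and 1 below in both pools, a median of 0.34 and 0 called (5 higher and 1 lower at an unadjusted p under 0.05), beside 48.0% above in both and a median of 0.12 over all named genes there. Ak1, adenylate kinase, read 603 and 480 against 274 (0.94, adjusted p = 0.174), Pfkl 429 and 335 against 190 (0.98, adjusted p = 0.176) and Ldha 523 and 655 against 316 (0.87, adjusted p = 0.190). Phkb, a phosphorylase kinase subunit, was the 1 below in both pools, at 48.0 and 92.6 against 190 (adjusted p = 0.174). On B, Ampd1, the muscle AMP deaminase, read 93.2 and 73.6 against 5.22 and was left out by the filter. On B the list had 3 genes above and 3 below, and its median of 0.17 turned to -0.25 on shared probe set scaling, where that of all probe sets was -0.55.

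Of 6 muscle oxidative genes on A, 4 were higher than wild type in both pools, 1 was lower and 0 were called (3 higher at an unadjusted p under 0.05). The lower one was Slc25a4, the mitochondrial ADP/ATP carrier and the brightest of the list, at 2928 and 3888 against 4013 (-0.38, adjusted p = 0.320). Mb, myoglobin, read 300.5 in pool 1 and 106 in pool 2 against 11.9 (2.85, SE 0.54, adjusted p = 0.161), but 6.68 and 8.50 against 33.5 on its dimmer probe set. Cox7a1 and Cox6a2, respiratory chain subunits typical of muscle, differed by 1.02 (adjusted p = 0.231) and 0.83 (adjusted p = 0.233). Of the 10 thick filament and M-band genes, 5 of 6 measured on A and 5 of 6 on B were above wild type in both pools. Over all named genes 48.0% on A and 44.5% on B were. On shared probe set scaling 3 of the 6 on B were above and 2 below. The list median on B was then 0.19 in place of 1.04, where that of all probe sets was -0.55. Myom2, an M-band protein gene, rose by its brightest probe set on B, at 153 and 219 against 6.06 (3.24, SE 0.63, adjusted p = 0.0030). Of its other probe sets there, 1 differed by 0.57 (adjusted p = 0.766) and 1 lay below wild type, and on A it read 5.27 and 6.17 against 4.39. Ttn, the giant sarcomere spring titin, differed by 1.71 on A (adjusted p = 0.161) and 1.21 on B (adjusted p = 0.259). Trim63, a muscle ubiquitin ligase, read 61.9 and 42.9 against 3.51 on B and was left out by the filter.

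Markers of skeletal muscle moved with the 10 genes. Each of the 12 fast sarcomere markers on A was above wild type in both pools. Their summed intensity was 4098 and 5103 in the Egr3-deficient pools against 249 in wild type, or 16.5-fold and 20.5-fold. Of these 6 rose by limma (Acta1, Myh1, Myl1, Mylpf, Tnnc2 and Tnni2), with Acta1, skeletal actin, at 1096 and 1205 against 39.7. In wild type 10 of the 12 read below the filter intensity, among them the other 5 called, which passed the filter through their Egr3-deficient readings. With no filter none of the 8 called probe sets of these 6 genes kept its call (adjusted p from 0.264 to 0.336). Of 8 slow muscle markers 7 were above in both pools, with sums of 1401 and 1120 against 724 and 0 called (3 higher at an unadjusted p under 0.05). None of the markers of either list read 0 in any pool, but wild-type readings went down to 1.33 (Tnni2), far below the filter intensity. Such readings are not taken as expression. The part of these fast and slow muscle markers in the values of the 10 genes was not tested.

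Markers of other cell types gave the following values. Of 8 liver markers 6 were above wild type in both pools, but the sums were 307 in pool 1 and 8797 in pool 2 against 154 in wild type, while the 8 genes described here summed to 1497 and 1599 against 419 on A. Adipocyte markers summed to 109.5 and 285 against 90.3. The heart list, 6 genes on A, summed to 86.5 and 105 against 93.8, and 5 of them read below the filter intensity in every pool. All 7 muscle progenitor and endplate markers, among them Pax7, Myod1 and Chrna1, read below that intensity in every pool, with sums of 86.2 and 97.7 against 81.3. Smooth muscle markers summed to 516 and 441 against 364. Of the 12 spinal cord markers on A, 4 were above and 5 below wild type in both pools, with sums of 23136 and 27002 against 31818. The brightest Mbp probe set gave 14549 of that wild-type sum, and its normalized difference of -0.056 follows its rank on each array. The sums on B went the other way, at 24541 and 20201 against 18765, with 4 markers above and 4 below. Nefl gave 11605 and 10839 against 10019 of those sums and Gfap 7583 and 3930 against 3137. On shared probe set scaling 0 of the markers on B were above and 6 below. Their median was then -0.20, beside -0.55 for all probe sets. Among the 9 on B, the astrocyte water channel gene Aqp4 fell (-1.84, adjusted p = 0.0115) and was the 1 call; that call ended under median centring too, and on A the difference was -1.74 (adjusted p = 0.158). Blood markers, 2 measured on A, summed to 114 and 62.7 against 21.1. The part of these tissues in the values of the 10 genes was not tested.

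**Figure D4:**
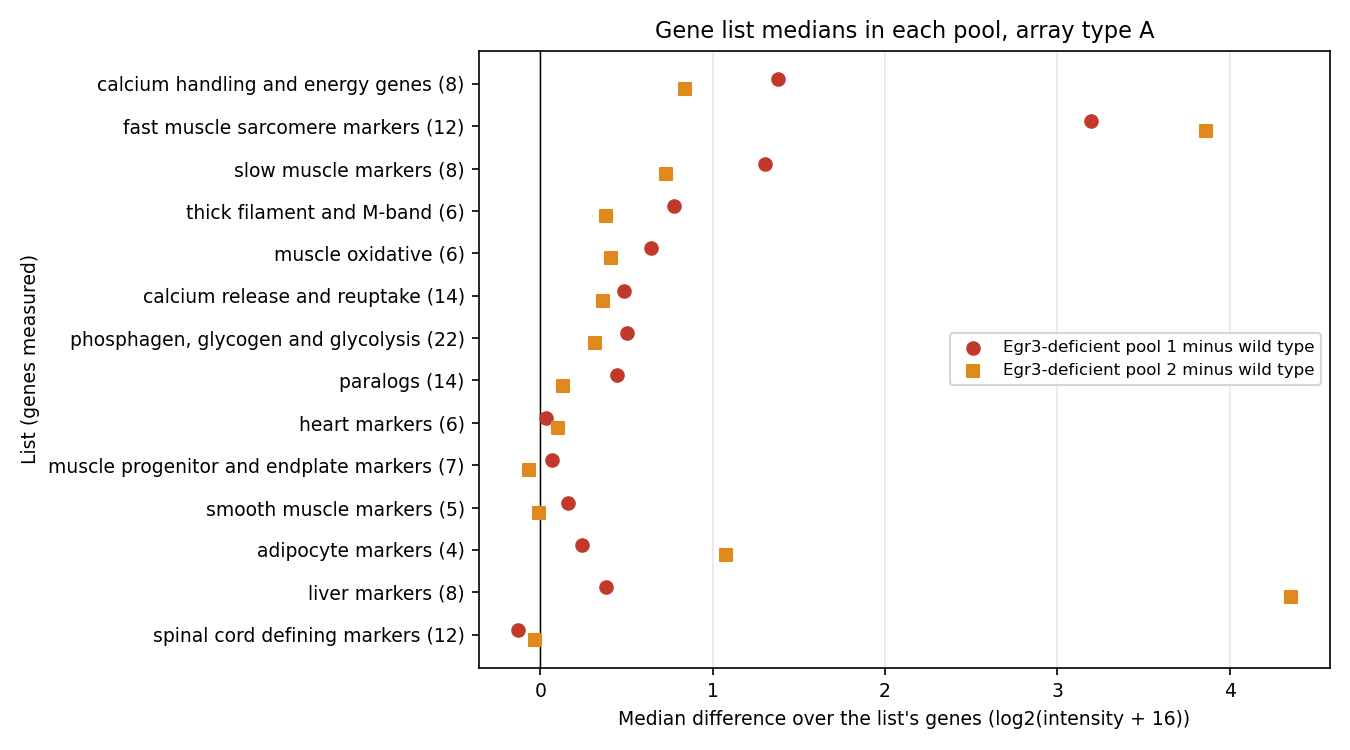
Median log2 difference from the wild-type pool over the genes of each list on array type A, in Egr3-deficient pool 1 (circles) and pool 2 (squares), with the number of genes measured in brackets. The fast sarcomere list lies at 3.19 and 3.86, the calcium handling and energy genes at 1.38 and 0.84 and the slow list at 1.30 and 0.73, and the liver list is high in pool 2 alone (0.38 in pool 1 and 4.36 in pool 2).

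By the brightest probe set, 4 of the 8 genes on A and 2 of the 4 on B had the larger difference in pool 2. Ckm, Atp2a1, Eno3 and Casq1 on A and Mybpc2 and Ryr1 on B had the larger difference in pool 2, with pool 1 minus pool 2 between -0.041 (Casq1) and -0.40 (Mybpc2) on the log2 scale. Pgam2 and the brighter Sln probe set had it in pool 1, with 1.07 and 0.65. So did Ckm on B (0.11) and Ryr1 on A (0.14), opposite to the other probe set of the same gene, and by 0.044 and 0.043 Pygm and the brightest Mybpc1 probe set. The second Mybpc1 probe set had the widest gap on B, at -0.94. Of the fast sarcomere markers 8 of 12 were higher in pool 2, and of the slow muscle markers 7 of 8 in pool 1. Over all named genes on A, 5681 of 12393 had the larger value in pool 2. With 1 array per pool these differences between pools have no replicate.

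By the 2 differences alone, the probe sets nearest to the median of the 10 genes on A were those of Omp, Kcnk13, Phc2, Snapc2 and Efnb1, at Euclidean distances of 0.032 to 0.057 on the log2 scale. On B they were those of Adamts12, Cacng8, Susd5, Fam178b and Sik2, at 0.013 to 0.051. Kcnk13, a potassium channel gene, read 118 and 81.3 against 41.9, and Phc2, a Polycomb group gene, 570 and 387 against 216. The likeness covers 2 values per probe set that share 1 wild-type pool.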

How the data were processed

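Each deposited file gives a linear intensity for every probe set of 1 array; which program the authors summarised probes with is unknown here. In the deposited intensity values the mean after trimming 2% from each tail was about 150 on every array (150.02 to 150.06). On A 22690 and on B 22575 probe sets were present, and 64 controls on each were left out. Array types were fitted apart: log2(intensity + 16), quantile normalization over the 3 arrays, a filter at the 40th percentile of the mean (13576 kept on A, 13507 on B), then limma 3.58.1 in R 4.3.3 with an intensity trend and Benjamini-Hochberg adjustment within the array type (prior degrees of freedom 6.54 and 52.3). Tables of lists use the probe set with the highest mean of a gene. The platform annotation gave the gene symbols, updated through gene identifiers. The number of arrays limits the precision.

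The members, the gene lists and the motifs were chosen with earlier results of these data known. Named genes are all probe sets of the 10 genes, their paralogs, list genes past the threshold, then up to 3 genes a list with the largest smaller-of-2 difference, not all of them printed, plus the nearest by likeness. Cacna1s, Pvalb, Ldha, Slc25a4, Nefl, Mbp, Slc6a5 and Pax7 fall outside that rule and were named after their values were seen. The scaling on probe sets shared by both array types was added after seeing the data.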

Additional observations from a re-analysis of the deposited data

How the results depend on the processing

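The count of the 10 genes' probe sets at least 2-fold higher in both pools was 3 on A and 5 with a pseudocount of 1, where the share over all probe sets was 1.14% and 5.48%. On B it was 3, and 1 on shared probe set scaling, a setting chosen after seeing the data, with shares of 4.47% and 1.52%. Leaving out each Egr3-deficient pool in turn gave 3 to 4 on A and 3 to 3 on B. The median difference over the genes was 1.09 on A, with 2.22 and 0.60 at pseudocounts of 1 and 64, and 0.84 to 1.38 with 1 pool left out. On B it was 1.32, with 1.17 without quantile normalization, 1.66 and 0.87 at pseudocounts of 1 and 64, 0.71 on shared scaling, 0.83 when a gene's probe sets were averaged, and 1.27 to 1.37 with 1 pool left out. Limma called 9 probe sets on A, against 824 under median centring, 0 with no filter and 34 on shared scaling. It called 220 on B, against 2 without quantile normalization, 141 under median centring, 349 with a pseudocount of 64, 0 with no filter, 375 with the 60th percentile filter, 0 without the intensity trend, 371 with robust eBayes and 0 on shared scaling. With no filter 1304 higher and 1974 lower on A, and 1024 higher and 1085 lower on B, had an unadjusted p under 0.05; on B without the trend 768 and 591 did, and on shared scaling 145 and 1804. The difference of 3 dim or flat probe sets turned its sign: the dimmer Sln probe set to 0.0032 without quantile normalization and 0.12 under median centring, the third Mybpc1 probe set to -0.17 without it and -0.68 on shared scaling, and Ckm on B to -0.30 on shared scaling. Of the other comparisons of single probe sets of the 10 genes, 37 moved by less than the SD between pools and 33 by more, none with a change of sign. All 8 fast sarcomere probe sets called on A outside the 10 genes kept their call without quantile normalization, under median centring, with a pseudocount of 1, with robust eBayes and on shared scaling, and none did with no filter. The causes of these moves were not tested, apart from the pseudocount, which by construction compresses dim values. No paired analysis was possible because the labels pair no Egr3-deficient pool with the wild-type pool. A lone wild-type pool, with 7 of the 9 probe sets on A below the filter intensity there, limits every fold value.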
